A study of Mus musculus with 15 samples.

Results

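This account covers 44 genes of the cell cycle and of DNA replication in 5 related mouse mammary epithelial cell lines. The genes were taken from a written list in 3 groups: 7 regulators of the step from G1 into S phase, 13 DNA replication genes and 24 mitotic genes. Of these, 43 had a value, out of 18193 genes measured; Ccnb1 had no probe set of its own name and was not analysed here, which left 23 mitotic genes. A probe set is a group of short probes that reports on 1 transcript, and where a gene had several, the probe set of highest mean over the 15 arrays stood for it. Values are log2 signals, so each unit is a 2-fold step.

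Each line was measured on 3 arrays. NMuMG is an established, non-tumorigenic line from mouse mammary gland and was the wild type here, with no passage through mice. E1KD is NMuMG with hnRNP E1 silenced, also without selection in mice. M1P, L1P and L2P all derive from the silenced E1KD cells and were grown back from mice. M1P came from a tumour that E1KD cells had formed in the mammary fat pad. L1P came from the lungs of mice that had received E1KD cells, and L2P from the lungs of mice that had received L1P cells. The hosts were NOD/SCID mice, a strain without functional T and B cells. Each line is 1 isolate, no line with a control vector is in the set, and nothing in the labels says that arrays of 1 line are from cultures of their own. Spread between arrays, which the p-values measure, may therefore be technical.

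A cell that commits to division first activates cyclin D with Cdk4 and cyclin E with Cdk2, which free E2F factors to switch on the genes for DNA synthesis. Cdc6 and Cdt1 load the ring-shaped MCM helicase onto origins in G1, and in S phase the helicase opens the DNA while ribonucleotide reductase supplies building blocks. Mitotic genes come on later, in G2 and M, and encode cyclin B with Cdk1, the motors of the spindle, the kinetochore proteins that bind chromosomes to it, and the checkpoint that holds the cell until all are attached. Proliferating epithelial lines express all of these, and in bulk RNA fewer dividing cells and less RNA per dividing cell cannot be told apart.

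The 2 later groups are known for different promoter elements, and the promoters of the members were read to show them. RefSeq promoter windows of 300 bases (250 before and 50 after the gene start, build GRCm38.p6) were found for 35 of the 44 members: 4 G1/S regulators, 12 replication genes and 19 mitotic genes, Ccnb1 among them. Not matched were Ccnd1, Ccne2, Myc, Mcm4, Ccna2, Aurkb, Kif20a, Foxm1 and Tpx2. These elements were searched for on both strands: E2F sites (TTTCGCGC, TTTGGCGC, TTTCCCGC or TTTGCCGC), the cell cycle homology region or CHR (TTTGAA or TTCGAA) and the CCAAT box (CCAAT). An E2F site was in 7 of 12 replication promoters (Cdc6, Cdt1, Hells, Mcm3, Mcm5, Mcm6 and Mcm7), in 1 of 19 mitotic promoters (Cdk1) and in 2.26% of all 32851 windows. A CHR was in 2 of 12 replication promoters (Mcm2 and Mcm7), in 14 of 19 mitotic promoters and in 19.2% of all windows. A CCAAT box, with or without a CHR, was in 8 of 12 replication promoters, in 15 of 19 mitotic promoters and in 37.4% of all windows. It was thus frequent in both groups. A CHR together with a CCAAT box was in 13 of 19 mitotic promoters, in 2 of 12 replication promoters and in 7.52% of all windows. Members were counted by gene, where any window of the gene held a match, and the shares over all windows by window. Mcm7 had more than 1 window, and its E2F and CHR matches were not in all of them. These matches are letters in a window, not sites shown to be bound. The 5 promoters below belong to genes on which the results turn: Cdc6 and Mcm5, replication genes with higher values in the passaged lines, and 3 mitotic genes that share the CHR and the CCAAT box but differ in their values. Capitals mark the motif matches, which overlap each other in the E2F stretch of Mcm5.
Cdc6 (chr11:98907901-98908200, plus strand, 1 E2F site): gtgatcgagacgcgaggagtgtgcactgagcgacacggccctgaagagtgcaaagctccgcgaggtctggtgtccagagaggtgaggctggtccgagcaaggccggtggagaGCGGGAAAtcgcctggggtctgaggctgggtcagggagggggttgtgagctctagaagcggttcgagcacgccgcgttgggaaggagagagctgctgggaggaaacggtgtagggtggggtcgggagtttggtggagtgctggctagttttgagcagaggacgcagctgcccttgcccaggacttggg
Mcm5 (chr8:75109259-75109558, plus strand, 2 E2F sites and 3 CCAAT boxes): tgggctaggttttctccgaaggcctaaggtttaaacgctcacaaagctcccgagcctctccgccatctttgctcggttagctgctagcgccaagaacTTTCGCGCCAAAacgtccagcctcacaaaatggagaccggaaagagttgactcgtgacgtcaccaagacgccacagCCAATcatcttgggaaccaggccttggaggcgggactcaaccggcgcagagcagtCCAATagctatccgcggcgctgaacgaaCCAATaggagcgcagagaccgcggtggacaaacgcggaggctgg
Plk1 (chr7:122159185-122159484, plus strand, 1 CHR and 1 CCAAT box): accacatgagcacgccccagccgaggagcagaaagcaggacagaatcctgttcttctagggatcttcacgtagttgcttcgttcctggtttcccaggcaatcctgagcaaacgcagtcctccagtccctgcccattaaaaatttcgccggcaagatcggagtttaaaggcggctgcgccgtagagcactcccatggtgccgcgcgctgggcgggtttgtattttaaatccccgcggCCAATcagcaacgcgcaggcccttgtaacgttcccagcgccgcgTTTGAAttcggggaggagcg
Bub1b (chr2:118597961-118598260, plus strand, 2 CHR and 1 CCAAT box): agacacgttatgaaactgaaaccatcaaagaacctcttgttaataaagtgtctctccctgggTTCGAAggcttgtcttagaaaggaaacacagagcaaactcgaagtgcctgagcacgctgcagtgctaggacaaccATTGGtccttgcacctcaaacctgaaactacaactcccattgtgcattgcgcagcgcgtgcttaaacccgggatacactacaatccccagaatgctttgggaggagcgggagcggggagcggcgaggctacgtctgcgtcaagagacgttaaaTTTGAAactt
Top2a (chr11:99024140-99024439, minus strand, 4 CHR and 6 CCAAT boxes): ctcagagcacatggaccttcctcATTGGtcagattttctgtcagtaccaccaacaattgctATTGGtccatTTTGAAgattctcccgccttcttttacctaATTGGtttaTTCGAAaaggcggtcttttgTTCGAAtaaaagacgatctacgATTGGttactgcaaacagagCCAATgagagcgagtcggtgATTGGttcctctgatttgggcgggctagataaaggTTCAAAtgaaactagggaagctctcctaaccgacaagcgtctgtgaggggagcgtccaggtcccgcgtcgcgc

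Several measurements of whole arrays bear on what follows. Pcbp1, the gene for hnRNP E1, had log2 signals of 12.57 to 12.76 on the NMuMG arrays and 7.95 to 10.09 on the 12 arrays of silenced lines. The M1P arrays were the least alike, with a lowest correlation of 0.93 between arrays of the line, against 0.979 to 0.994 in the other lines. M1P array 1 lay more than 1 log2 unit below the E1KD mean in 16.1% of all genes, array 2 in 7.94% and array 3 in 2.86%. The 3' minus 5' log2 signal of control transcripts, a sign of RNA breakage when high, was not raised on M1P arrays 1 and 2: 1.43 and 1.72 for Tfrc against 1.91 to 2.60 on the others, 0.64 and 0.68 for actin against 0.68 to 0.98, and 0.25 and 0.27 for Gapdh against 0.19 to 0.45. The summed epithelial marker signal was 14.99 to 15.57 in all lines, led by the keratin Krt8. Of the 8 genes, Krt19 rose in M1P against E1KD (0.68, adjusted p = 0.0239), Krt7 fell in E1KD against NMuMG (means of 4.81 and 10.27, -5.46 ± 0.32, adjusted p = 2.22e-07 by limma), and Epcam, Cldn7 and Esrp1 were low in NMuMG and in E1KD (means of at most 5.30, 3.36 and 2.57). No gene of the fibroblast, endothelial, leukocyte or lung epithelium lists had a line mean above 8. The summed signal of all 4 of these lists was highest on an M1P array. It is given beside the highest of E1KD and of the next highest line. Fibroblast markers reached 7.67 (E1KD 6.48, NMuMG 6.76) and endothelial markers 7.90 (E1KD 7.18, NMuMG 7.58). Leukocyte markers reached 7.72 (E1KD 7.15, L2P 7.60) and lung epithelium markers 9.16 (E1KD 7.66, NMuMG 7.76). The lowest M1P arrays were at 6.65, 7.24, 7.08 and 8.02 in this order, so the first 3 lists overlapped other lines. In M1P against E1KD, 1 of 8 fibroblast genes rose (Col1a2, 1.09) and 2 of 8 endothelial genes (Egfl7, 0.89, and Kdr, 0.57). So did 2 of 7 lung epithelium genes (Foxj1, 1.99, and Ager, 0.46). None of 8 leukocyte genes passed by limma (2 at an unadjusted p under 0.05). Of all genes, 17.7% were higher in this comparison. Median differences were 0.30 for fibroblast, 0.23 for endothelial, 0.26 for leukocyte and 0.38 for lung epithelium markers, against 0.20 for all genes. Without M1P arrays 1 and 2, Foxj1 was the 1 gene of these 4 lists that passed (adjusted p = 0.0472 by limma). Their part in the results was not tested.

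The members were first compared across all 5 lines. By limma's F test, 17 of 43 members (39.5%) differed among the lines at an adjusted p under 0.05, against 31.8% of all genes. They were 4 of 7 G1/S regulators (Ccnd1, Cdk4, Ccne1 and E2f1), 3 of 13 replication genes (Cdc6, Mcm5 and Rrm2) and 10 of 23 mitotic genes. The count was 32 without M1P array 3.

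**Figure D1:**
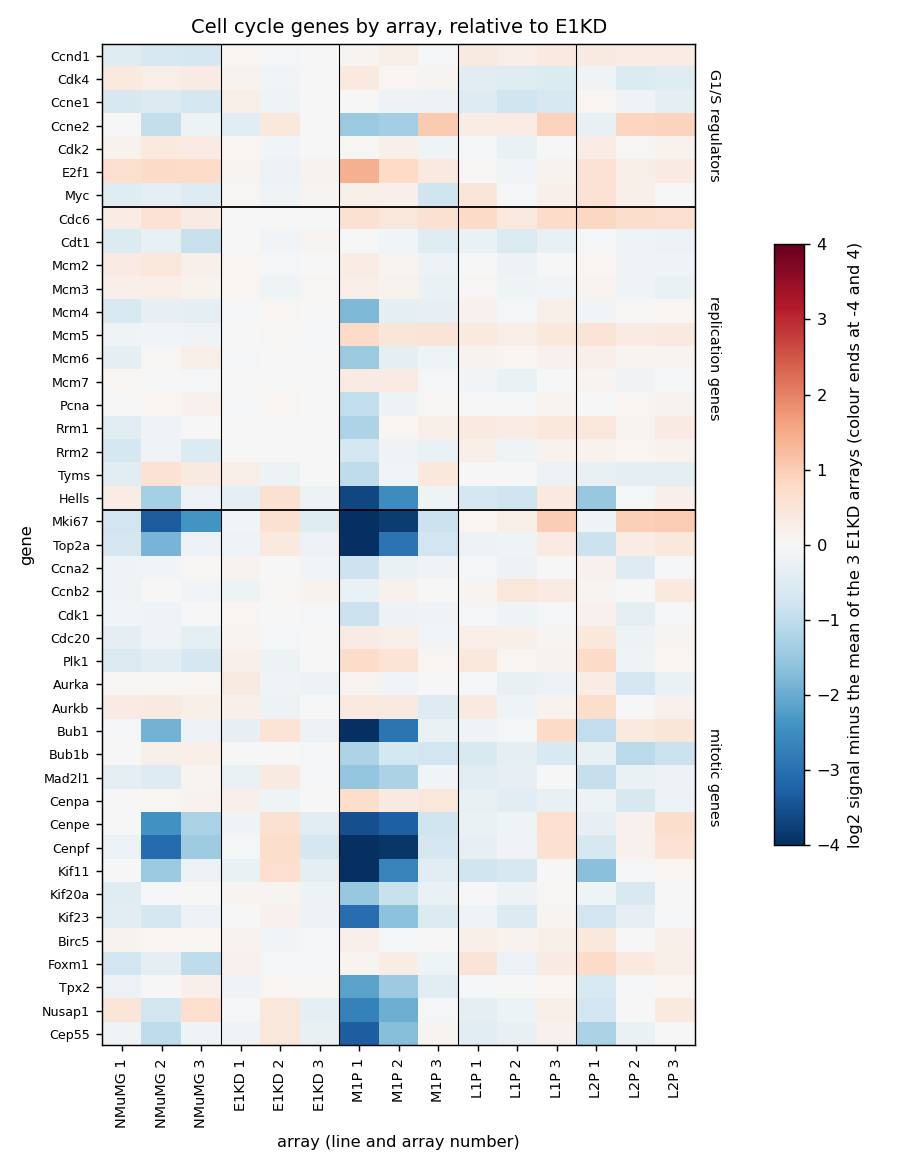
Each row is a member gene and each column an array, and the colour gives the log2 signal minus the mean of the 3 E1KD arrays, with the colour scale ending at -4 and 4. M1P arrays 1 and 2 hold the deepest low values, in mitotic genes above all, down to -4.84 on array 1 and -3.90 on array 2, while M1P array 3 stays above -1 throughout.

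E1KD against NMuMG compared cells with hnRNP E1 silenced with the wild type. The test was passed by 4 members: Ccnd1, Ccne1 and Cdt1 rose and E2f1 fell, which is 3 of 43 members higher and 1 lower, against 3.00% and 6.49% of all genes. No mitotic gene passed by limma with the main settings, where 3 of 23 had an unadjusted p under 0.05, all higher in E1KD. Under some alternatives 3 did, all higher in E1KD: Mki67, Foxm1 and Plk1 with array weights (adjusted p = 0.0263, 0.0132 and 0.0164) and in a fit of these lines alone (0.0369, 0.0283 and 0.0241).

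Ccnd1 encodes cyclin D1, the partner of Cdk4 at the start of G1. Its log2 signals were 12.16, 12.02 and 11.95 in NMuMG and 12.72, 12.56 and 12.67 in E1KD. The lines did not overlap, and the difference was 0.61 ± 0.11 (standard error), 1.52-fold, with an adjusted p of 0.00258 by limma. It passed under all 14 alternative settings. The passaged lines read 12.77, 12.87 and 12.56 in M1P, 13.02, 12.93 and 13.03 in L1P, and 13.01, 12.94 and 12.95 in L2P. M1P overlapped E1KD. The L1P and L2P arrays were all above the E1KD arrays, but these differences of 0.34 and 0.32 did not pass (adjusted p = 0.157 and 0.17).

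Ccne1, or cyclin E1, the partner of Cdk2, rose in E1KD and was low again in L1P. Its signals were 8.43, 8.52 and 8.36 in NMuMG, 9.28, 8.88 and 9.03 in E1KD, 9.05, 8.85 and 8.82 in M1P, 8.54, 8.26 and 8.43 in L1P, and 9.14, 8.93 and 8.71 in L2P. NMuMG and L1P shared a low range, and all arrays of the other 3 lines lay above both. E1KD exceeded NMuMG by 0.62 ± 0.14 (adjusted p = 0.0122), which became 0.0538 without NMuMG array 3 and 0.0604 without E1KD array 1. L1P differed from E1KD by -0.65 ± 0.14 (adjusted p = 0.026), a call that ended without E1KD array 1 or 3 or any L1P array (adjusted p of 0.0501 to 0.133). L2P was close to E1KD, at -0.13 ± 0.14 (adjusted p = 0.948).

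E2f1, the transcription factor that drives S-phase genes, ran the other way. Its signals were 7.74, 7.87 and 7.83 in NMuMG and 7.20, 6.88 and 7.22 in E1KD, a change of -0.72 ± 0.21 (adjusted p = 0.0482). Leaving out any 1 of these 6 arrays ended that call, with adjusted p from 0.0835 to 0.203. In M1P the arrays read 8.51, 7.88 and 7.50, all above E1KD, with array 1 highest and array 3 lowest. M1P exceeded E1KD by 0.87 ± 0.21 (adjusted p = 0.0142), which did not pass without E1KD array 2 (adjusted p = 0.0696), and array 3 alone by 0.40 (adjusted p = 0.25). L1P (7.16, 6.98 and 7.25) overlapped E1KD, and L2P (7.69, 7.32 and 7.43) lay above it without passing.

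Cdt1, which with Cdc6 loads the MCM ring, had signals of 11.03, 11.29 and 10.69 in NMuMG and 11.61, 11.47 and 11.68 in E1KD. The groups were separate, and the rise was 0.58 ± 0.17 (adjusted p = 0.0426). It did not pass without NMuMG array 1 or 3 or without any 1 of the E1KD arrays (adjusted p of 0.079 to 0.174), nor as the mean of all Cdt1 probe sets, at 0.23 (adjusted p = 0.481). The count of 4 members rested on single arrays: leaving out NMuMG array 1 gave 2 and NMuMG array 3 gave 1, while leaving out E1KD array 1 gave 1 and either of the other E1KD arrays 2.

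Cdk4 and Myc complete the G1/S picture. Cdk4, the kinase that cyclin D1 activates, was 11.18, 11.04 and 11.13 in NMuMG, 10.93, 10.67 and 10.76 in E1KD, 11.19, 10.87 and 10.90 in M1P, 10.32, 10.32 and 10.24 in L1P, and 10.64, 10.23 and 10.30 in L2P. Both lung lines lay below all E1KD arrays, at -0.49 (adjusted p = 0.08) and -0.40 (adjusted p = 0.154), neither past the threshold. L1P was lower than M1P, by -0.69 ± 0.13 (adjusted p = 0.00381). Myc, a growth-promoting transcription factor, was 9.03, 9.15 and 8.98 in NMuMG, 9.55, 9.36 and 9.64 in E1KD, and 9.75, 9.70 and 8.73 in M1P, where array 3 was low. It lay between 9.48 and 10 in L1P and between 9.53 and 10.11 in L2P, and with all arrays Myc passed no comparison between lines.

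Cyclin E2 and Cdk2 passed no comparison either. Ccne2 read 7.23, 8.07 and 7.64 in E1KD and 6.15, 6.28 and 8.68 in M1P, so arrays 1 and 2 were below all E1KD arrays and array 3 above them. Its mean difference of -0.61 ± 0.56 averages these opposite placings (adjusted p = 0.396). Cdk2 stayed between 7.62 and 8.28 over all 15 arrays, with an M1P difference of 0.03 ± 0.13 from E1KD.

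Replication genes were next compared in the passaged lines. Cdc6, the loader of the MCM ring, was higher than in E1KD in all 3. Its signals were 8.71, 8.98 and 8.75 in NMuMG, 8.39, 8.44 and 8.41 in E1KD, 9.03, 8.87 and 9.02 in M1P, 9.18, 8.79 and 9.13 in L1P, and 9.23, 9.12 and 9.04 in L2P. All 9 arrays of the passaged lines exceeded all 3 E1KD arrays, and the M1P arrays were alike. The differences were 0.56 ± 0.12 in M1P (adjusted p = 0.0103), 0.62 ± 0.12 in L1P (adjusted p = 0.0152) and 0.72 ± 0.12 in L2P (adjusted p = 0.00425). The 3 differences share the E1KD arrays. The L2P result passed under all 14 alternatives, with adjusted p from 0.000314 to 0.0212. The L1P result did not pass without any 1 of the E1KD arrays or without L1P array 1 or 3 (adjusted p of 0.0528 to 0.0905). With M1P array 3 alone the difference was 0.61 (adjusted p = 0.069). In E1KD against NMuMG, Cdc6 differed by -0.40 ± 0.12 (adjusted p = 0.0634).

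Mcm5, a subunit of the MCM ring, rose in M1P. It read 11.30, 11.34 and 11.29 in NMuMG, 11.46, 11.48 and 11.35 in E1KD, 12.20, 11.91 and 11.94 in M1P, 11.81, 11.71 and 11.86 in L1P, and 11.96, 11.75 and 11.78 in L2P. All arrays of the passaged lines lay above all E1KD arrays. The M1P difference was 0.59 ± 0.11 (adjusted p = 0.00469), against 0.51 (adjusted p = 0.0559) with array 3 alone. The differences in L1P (0.37 ± 0.11, adjusted p = 0.122) and L2P (0.40 ± 0.11, adjusted p = 0.0645) did not pass.

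The other MCM subunits did not move together in M1P, although the 6 proteins act in 1 ring. On M1P array 1, set against the E1KD mean, Mcm2 was at 0.29, Mcm3 at 0.28, Mcm5 at 0.77 and Mcm7 at 0.33, while Mcm4 was at -1.81 and Mcm6 at -1.48. On array 2 Mcm4 was at -0.40 and Mcm6 at -0.36, and on array 3 they were at -0.33 and -0.16. The low values of Mcm4 and Mcm6 were thus largest on array 1. Mcm4 read 10.53, 10.68 and 10.62 in E1KD and 8.80, 10.21 and 10.28 in M1P, a change of -0.85 ± 0.29 (adjusted p = 0.0474). Without M1P array 1 it was -0.37 (adjusted p = 0.093), and without any 1 of the E1KD arrays it did not pass either (adjusted p of 0.0799 to 0.133). Mcm6 (-0.66, adjusted p = 0.0711), Mcm2 (0.06), Mcm3 (0.05) and Mcm7 (0.20) did not pass. The further Mcm7 probe sets gave larger differences of 0.50, 0.49 and 0.43. In every line Mcm2 stayed between 10.10 and 10.78 and Mcm3 between 9.99 and 10.55. Their differences from E1KD were small in the lung lines (-0.06 and -0.08 for Mcm2, -0.08 and -0.12 for Mcm3, in L1P and L2P).

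The genes of DNA synthesis and its chromatin, Pcna, Rrm1, Rrm2, Tyms and Hells, did not pass against E1KD. Hells, a chromatin remodeller of replicating cells, was 9.63, 10.63 and 9.83 in E1KD and 6.38, 7.53 and 9.85 in M1P. Its first 2 M1P arrays lay far below E1KD and the third within it, for a mean difference of -2.11 ± 0.75 (adjusted p = 0.0508). Pcna, the sliding clamp of the polymerases, was 12.78, 12.95 and 12.87 in E1KD and 11.90, 12.66 and 12.92 in M1P, a difference of -0.37 that did not pass. Rrm1, the large subunit of ribonucleotide reductase, was 11.07, 11.04 and 11.03 in E1KD and 9.80, 11.13 and 11.27 in M1P. Here array 1 alone was low, and the other 2 M1P arrays were above E1KD. Outside M1P, Pcna lay between 12.78 and 13.04 on every array. Rrm2, a subunit of ribonucleotide reductase, was 11.37, 11.91 and 11.52 in NMuMG, 12.09, 12.07 and 12.03 in E1KD, 11.37, 11.93 and 11.80 in M1P, 12.26, 11.88 and 12.20 in L1P, and 12.20, 12.16 and 12.19 in L2P. All NMuMG and M1P arrays lay below all E1KD arrays. The gene passed the F test (adjusted p = 0.0406) and no pairwise comparison. Tyms had signals of 3.65 to 5.23, near the array medians of 4.17 to 4.26, so its differences are compressed.

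M1P against E1KD addressed what differed in cells regrown from a mammary tumour. The test was passed by 12 mitotic members: Cenpa rose, and Cenpf, Mki67, Top2a, Kif11, Cenpe, Bub1, Kif23, Tpx2, Mad2l1, Bub1b and Kif20a fell. Over all 43 members 4 were higher and 12 lower, against 17.7% and 9.86% of all genes. By group it was 1 higher and none lower of 7 G1/S regulators (E2f1), 2 higher and 1 lower of 13 replication genes (Cdc6 and Mcm5 higher, Mcm4 lower), and 1 higher and 11 lower of 23 mitotic genes.

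The larger falls were in genes of the spindle, the kinetochore and chromosome structure. Mki67, the gene of the Ki-67 proliferation antigen that coats mitotic chromosomes, read 10.31, 7.75 and 8.67 in NMuMG, 10.96, 11.68 and 10.58 in E1KD, 6.48, 7.27 and 10.20 in M1P, 11.15, 11.29 and 12.06 in L1P, and 10.89, 12.01 and 12.10 in L2P. M1P arrays 1 and 2 and NMuMG array 2 were the lowest of all, and M1P array 3 lay just under the lowest E1KD array. The M1P difference was -3.09 ± 0.82 (8.49-fold lower, adjusted p = 0.0205), against -2.33 without M1P array 1 (adjusted p = 0.0793), -2.78 without E1KD array 2 (adjusted p = 0.0854) and -0.87 with M1P array 3 alone (adjusted p = 0.587). Against NMuMG, E1KD differed by 2.16 ± 0.82 with separate groups, which did not pass (adjusted p = 0.134) but did with array weights (1.86, adjusted p = 0.0263), in a fit of these lines alone (adjusted p = 0.0369) and without M1P arrays 1 and 2 (adjusted p = 0.016).

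Top2a, the topoisomerase that untangles sister chromatids, had the same order of M1P arrays. It read 10.79, 9.60 and 11.24 in NMuMG, 11.32, 11.84 and 11.22 in E1KD, 6.67, 8.51 and 10.68 in M1P, 11.22, 11.28 and 11.79 in L1P, and 10.59, 11.78 and 11.88 in L2P. M1P array 1 was lowest, array 2 next, and array 3 below E1KD but near it. The difference was -2.84 ± 0.75 (adjusted p = 0.02). It was -1.87 without M1P array 1 (adjusted p = 0.0614), -2.65 without E1KD array 2 (adjusted p = 0.0807) and -0.78 with M1P array 3 alone (adjusted p = 0.488). The 2 further Top2a probe sets gave -1.35 and, near the array floor, 0.24.

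Cenpf and Cenpe serve the kinetochore, Cenpe as its motor. Cenpf was 9.05, 9.79 and 8.42 in E1KD and 4.24, 5.19 and 8.40 in M1P, a change of -3.14 ± 0.91 (adjusted p = 0.0269). Cenpe was 8.45, 9.19 and 8.12 in E1KD and 5.08, 5.32 and 7.77 in M1P, a change of -2.53 ± 0.68 (adjusted p = 0.0214). Without M1P array 1 neither passed, Cenpf at -2.29 (adjusted p = 0.108) and Cenpe at -2.04 (adjusted p = 0.083), nor without M1P array 2 (0.063 and 0.0535) or E1KD array 2 (0.102 and 0.0896), and Cenpf also not without E1KD array 1 (0.0566). In both genes array 3 lay just under the lowest E1KD array, while arrays 1 and 2 were far below it. NMuMG also had a low array in both: array 2 read 6.0 for Cenpf, against 8.86 and 7.67, and 6.16 for Cenpe, against 8.58 and 7.31.

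The kinesins and the checkpoint genes Bub1 and Mad2l1 also had lower values on M1P array 1 than on array 3. Kif11, the motor that separates the spindle poles, was 7.94, 8.88 and 7.85 in E1KD and 3.61, 5.55 and 7.82 in M1P, a change of -2.57 ± 0.82 (adjusted p = 0.0378). Without M1P array 1 it was -1.54 (adjusted p = 0.152), and it did not pass without M1P array 2 or any 1 of the E1KD arrays either (adjusted p of 0.0653 to 0.132). Kif23, a motor of cytokinesis, fell by 1.75 ± 0.45 (adjusted p = 0.0181), with M1P arrays at 7.20, 8.60 and 9.70, and by 1.10 without M1P array 1 (adjusted p = 0.0369); without E1KD array 2 it did not pass (adjusted p = 0.0736). Kif20a, another cytokinesis motor, fell by 0.89 ± 0.26 (adjusted p = 0.0269), which was -0.58 without M1P array 1 (adjusted p = 0.0981) and did not pass without E1KD array 1 or 2 (0.0655 and 0.0931). Array 1 was the lowest M1P array in each. Bub1 and Mad2l1 of the spindle checkpoint fell, at -2.47 ± 0.80 (adjusted p = 0.0393) and -0.98 ± 0.33 (adjusted p = 0.0446), but in both genes M1P array 3 overlapped the E1KD arrays. Bub1 was at -1.59 without M1P array 1 (adjusted p = 0.167) and Mad2l1 at -0.69 (adjusted p = 0.185), and both calls also ended without M1P array 2 or any 1 of the E1KD arrays. Tpx2, which activates Aurora A on the spindle, fell by 1.34 ± 0.33 (adjusted p = 0.0147), and did not pass without E1KD array 2 (adjusted p = 0.061). Nusap1, which bundles spindle microtubules, read 5.94, 6.69 and 8.58 in M1P against 8.55, 9.08 and 8.29 in E1KD, and Cep55, which acts at the final cut between daughter cells, 6.94, 8.57 and 10.35 against 10.12, 10.70 and 9.94. In both, arrays 1 and 2 were low and array 3 within the E1KD range, and neither passed (-1.57, adjusted p = 0.0537, and -1.63, adjusted p = 0.0684). Cdk1, the kinase that drives entry into mitosis, was 11.86, 11.77 and 11.69 in E1KD and 10.92, 11.56 and 11.65 in M1P (-0.40, adjusted p = 0.104), and lay between 11.40 and 11.94 on all other arrays. For Ccna2, or cyclin A2, the probe set used gave -0.42 and another gave -1.58.

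Bub1b was low on each M1P array and in the lung lines too. This checkpoint kinase read 9.58, 9.77 and 9.80 in NMuMG, 9.58, 9.58 and 9.49 in E1KD, 8.31, 8.84 and 8.77 in M1P, 8.95, 9.18 and 8.94 in L1P, and 9.26, 8.46 and 8.69 in L2P. All 9 arrays of the passaged lines lay below all E1KD arrays. The difference was -0.91 ± 0.19 in M1P (adjusted p = 0.00843), -0.53 ± 0.19 in L1P (adjusted p = 0.269) and -0.75 ± 0.19 in L2P (adjusted p = 0.0488). The M1P value with array 3 alone was -0.78 (adjusted p = 0.0915), and the L2P call ended without any 1 of the E1KD arrays or without L2P array 2 or 3 (adjusted p of 0.123 to 0.227). It ended too with the replicate block (0.0686), the probe set of largest variance (0.0529), the filter on low values (0.0504) and in a fit of these lines alone (0.0935). These 3 comparisons share the E1KD arrays.

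Other mitotic genes did not pass the test or rose. Cenpa, the histone of the centromere, read 10.67, 10.31 and 10.46 in E1KD, 11.18, 10.84 and 10.93 in M1P, 10.17, 10.05 and 10.17 in L1P, and 10.28, 9.83 and 10.26 in L2P. All M1P arrays were above all arrays of the other lines shown, with a rise over E1KD of 0.51 ± 0.14 (adjusted p = 0.0255). A second Cenpa probe set gave -0.18, the mean of all its probe sets 0.10 (adjusted p = 0.525), and the call ended without M1P array 1 or without E1KD array 2 or 3. Plk1, a mitotic kinase, read 9.74, 9.33 and 9.52 in E1KD and 10.25, 10.08 and 9.62 in M1P, 0.45 higher without passing (adjusted p = 0.13). Aurkb, the kinase of the chromosome passenger complex, read 9.46, 9.07 and 9.27 in E1KD and 9.66, 9.63 and 8.74 in M1P (0.08, adjusted p = 0.814). Aurkb stayed between 9.07 and 9.96 in the other 4 lines. The activator of the anaphase ligase Cdc20, cyclin B2 (Ccnb2), survivin (Birc5), Aurora A (Aurka) and the mitotic transcription factor Foxm1 differed by 0.16, -0.05, 0.05, 0.01 and 0.08 between M1P and E1KD. Further Foxm1 probe sets at similar levels (means of 7.45 and 7.27, against 7.49 for the one used) did not match each other. They gave 0.06 and 0.52 in M1P against E1KD, and 0.64 and 0.13 in E1KD against NMuMG. Foxm1 was lowest in NMuMG, at 6.71, 7.13 and 6.46, against 7.66, 7.39 and 7.40 in E1KD, and that difference of 0.71 ± 0.22 did not pass (adjusted p = 0.0646), though it did with the replicate block (0.0478), without NMuMG array 2 (0.90, adjusted p = 0.0397) and without M1P arrays 1 and 2 (0.0372).

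The M1P count rested on which arrays were used, and it was 0 in a limma fit of the M1P and E1KD arrays alone, where 17 members had an unadjusted p under 0.05 and 67 of all genes passed. With arrays 1 and 2 left out, a check chosen after the data had been seen, 0 members passed by limma (6 at an unadjusted p under 0.05), against 809 of all genes; 1 array then stands for the line and is assumed to vary like the others. From 16 members, leaving out E1KD array 1 gave 10 and E1KD array 2 gave 3, while leaving out M1P array 1 gave 6 and M1P array 3 gave 26.

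**Figure D2:**
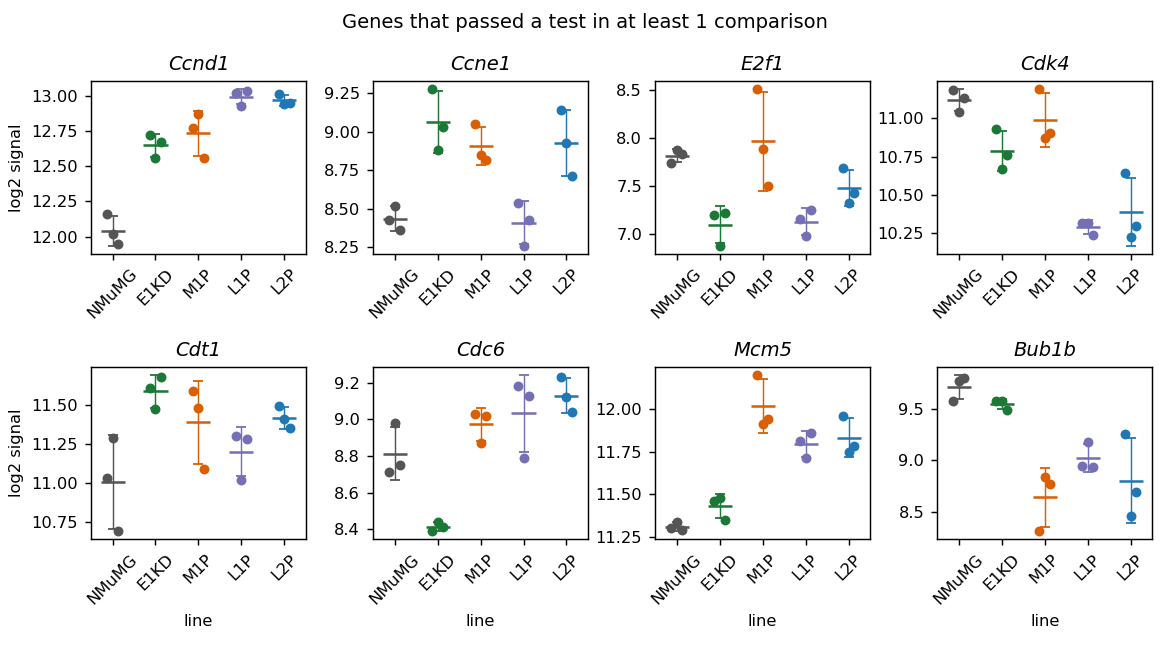
Each panel is 1 of 8 genes (Ccnd1, Ccne1, E2f1, Cdk4, Cdt1, Cdc6, Mcm5 and Bub1b) that passed at least 1 comparison; points are arrays, bars the mean and SD of 3 arrays, the x axis the line and the y axis the log2 signal, which does not start at 0. All arrays of M1P, L1P and L2P lie above E1KD for Cdc6 and Mcm5 and below it for Bub1b.

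The replication genes were then set beside the mitotic genes array by array, each array against the E1KD mean. The median of the replication genes was -0.69, -0.10 and -0.16 on M1P arrays 1, 2 and 3, and the median of the mitotic genes -1.51, -0.89 and -0.17. All genes had medians of 0.37, 0.16 and 0.07 on the same arrays. The mitotic median thus lay 0.82 and 0.79 log2 units below the replication median on arrays 1 and 2 (-0.82 and -0.79) and level with it on array 3 (-0.01). On the other arrays the mitotic minus replication value ran from -0.38 (NMuMG array 2) to 0.07 (E1KD array 2). Array 1 had 13 of 23 mitotic and 5 of 13 replication genes more than 1 log2 unit below E1KD, against 16.1% of all genes. Array 2 had 11 and 1, against 7.94%, so its replication count was near the share of all genes. Array 3 had none of either, against 2.86%.

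Over the 3 M1P arrays together, the median difference from E1KD was -0.24 for replication genes, -0.91 for mitotic genes and 0.20 for all genes. Relative to all genes this was -0.44 and -1.11, and -0.43 and -0.98 after quantile normalization. Without M1P arrays 1 and 2 the medians were -0.16 and -0.17. In E1KD against NMuMG the mitotic median was higher, 0.26 against 0.04, and no mitotic gene passed there with the main settings.

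**Figure D3:**
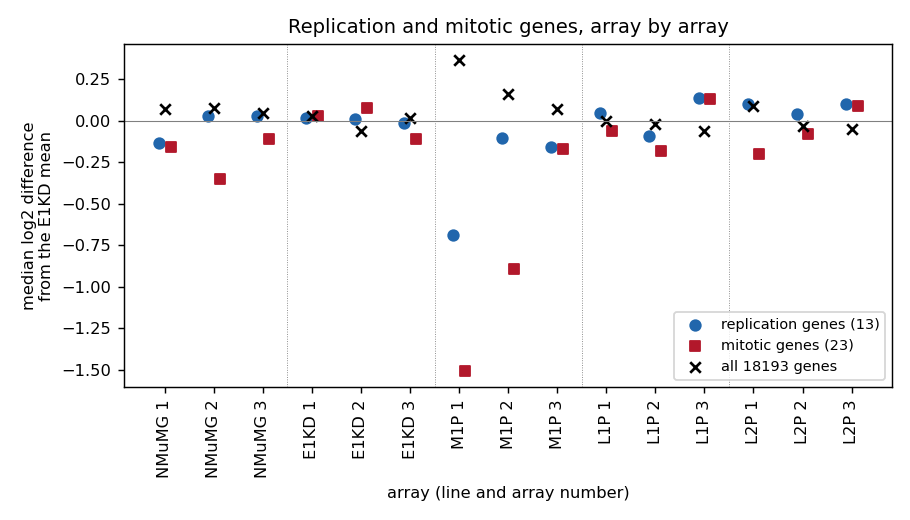
Points give the median log2 difference from the E1KD mean (y axis) on each array (x axis), for the 13 replication genes, the 23 mitotic genes and all 18193 genes. Replication and mitotic medians separate on M1P arrays 1 and 2, by -0.82 and -0.79, and not on array 3, at -0.01.

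Spread within a line was examined on its own, since the M1P arrays differ. A member's range over the 3 arrays of its line exceeded 1 log2 unit in 21 of 43 members in M1P (48.8%), against 23.9% of all genes. The same held for 8 members in NMuMG (18.6%, against 4.38%), 4 in E1KD (9.30%, against 2.02%), 10 in L2P (23.3%, against 7.29%) and 1 in L1P (2.33%, against 1.39%). In NMuMG, E1KD, M1P and L2P this share was above that of all genes. In L1P it was 1 member (Hells, range of 1.19), near the share of all genes. In NMuMG, array 2 had 8 members more than 1 log2 unit below the E1KD mean (8 of 43), 7 of them mitotic, against 6.27% of all genes.

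The deviations of M1P array 1 from its line mean were compared with those of single arrays elsewhere, across genes and as a description, since genes are not independent replicates. Pearson's r over the 23 mitotic genes was 0.83 with NMuMG array 2, 0.93 with L2P array 1 and -0.91 with E1KD array 2. Over the 13 replication genes these were 0.52, 0.70 and -0.61. Over all genes they were 0.43, 0.75 and -0.57. With L1P array 3 and L2P arrays 2 and 3, r over the mitotic genes was -0.86, -0.88 and -0.90. No other arrays were compared, and NMuMG array 2 had been singled out above for its low mitotic genes. The arrays share the platform and each line mean includes the array itself, and what such arrays have in common was not tested.

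**Figure D4:**
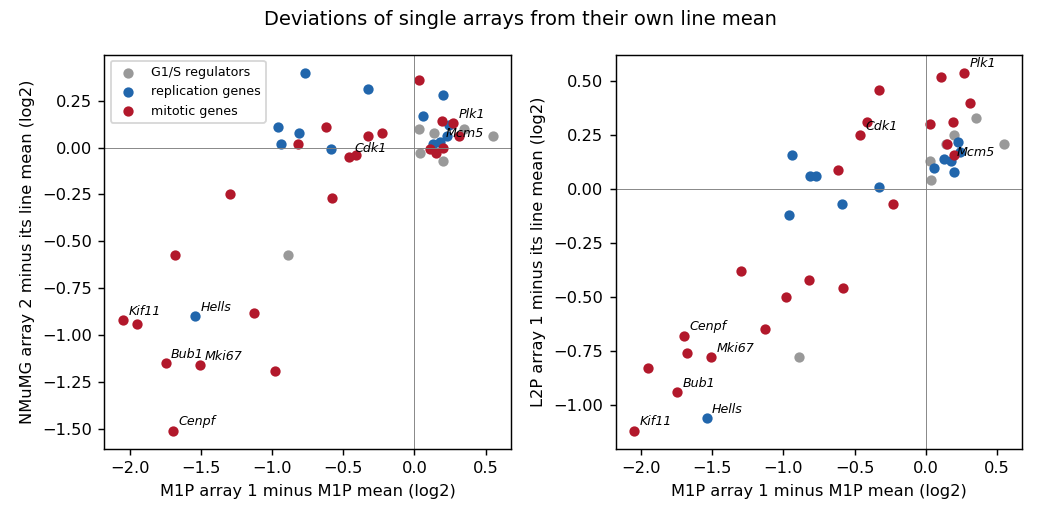
Each point is a member gene; the x axis is its log2 deviation on M1P array 1 from the M1P mean, and the y axis its deviation on 1 array of another line from that line's mean. Mitotic genes far to the left are low on NMuMG array 2 and L2P array 1 as well (r = 0.83 and 0.93 over the mitotic genes).

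The lung lines were close to E1KD in these genes. In L1P, Cdc6 rose and Ccne1 fell, 1 of 43 members in each direction, against 1.19% and 1.29% of all genes. In L2P, Cdc6 rose and Bub1b fell, against 2.14% and 1.64%. Mitotic medians were -0.03 and -0.08 and replication medians 0.02 and 0.00 in L1P and L2P. Of the 23 mitotic genes in L1P, none passed by limma, where 2 had an unadjusted p under 0.05, both lower in L1P. The L1P count of 2 became 0 without E1KD array 1, E1KD array 3, L1P array 1 or L1P array 3, and 1 without E1KD array 2 or L1P array 2. The L2P count of 2 became 1 without any single E1KD array and without L2P array 2 or array 3.

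Between the lung lines nothing passed: 0 of 43 members, against 0.0934% and 0.0495% of all genes higher and lower in L2P. By limma 1 member had an unadjusted p under 0.05, Ccne1, higher in L2P by 0.52 (adjusted p = 0.474). Signals of Mki67 were 11.15, 11.29 and 12.06 in L1P and 10.89, 12.01 and 12.10 in L2P, which overlap.

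L1P against M1P set a lung isolate beside a tumour isolate of the same passage. Of 43 members 10 were higher in L1P and 4 lower, against 13.6% and 25.9% of all genes. Of the 10, 8 were mitotic: Mki67 (3.51 ± 0.82, adjusted p = 0.00943), Cenpf (3.18), Top2a (2.81), Bub1 (2.65), Cenpe (2.61), Kif23 (1.55), Tpx2 (1.35) and Kif20a (0.84). Mcm4 (0.95) and Mcm6 (0.80) were the replication genes. Cenpa (-0.86), E2f1 (-0.83), Cdk4 (-0.69) and Ccne1 (-0.50) were lower. Leaving out M1P array 1 took the count of 14 members to 6. Of all genes, 1205 were then higher and 2058 lower, against 2466 and 4720 with all arrays. Leaving out M1P array 3 took the member count to 23 (3185 and 6678 of all genes), and leaving out L1P array 3 took it to 5. In a limma fit of these lines alone it was 0 (12 at an unadjusted p under 0.05, and 288 of all genes passed), and without M1P arrays 1 and 2 it was 2, Myc (1.01, adjusted p = 0.0241) and Cenpa (-0.80, adjusted p = 0.0276). Without M1P array 1, Top2a (1.84), Bub1 (1.77), Cenpf (2.33), Cenpe (2.12), Kif23 (0.90), Kif20a (0.53), Mcm6 (0.39) and Ccne1 (-0.43) did not pass (adjusted p of 0.0502 to 0.102), while Mcm4 did, at a smaller difference than with all arrays. In L1P against M1P the all-gene median was -0.25, the mitotic median 0.73 and the replication median 0.17.

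Other genes of the same pathways were counted from lists of genes that are not members, to place the members. In M1P against E1KD, 8 of 38 further replication genes rose and 7 fell, against 17.7% and 9.86% of all genes. These counts, and those of the other lists in M1P below, rested on arrays 1 and 2: without both, 2 replication genes rose and none fell, no mitotic gene or inhibitor passed by limma (6 and 1 at an unadjusted p under 0.05), and none of the G1/S genes rose and 3 fell, with 412 of all genes higher and 397 lower. Rfc2 (1.05 ± 0.18, adjusted p = 0.00313) and Rfc5 (0.82), parts of the clamp loader, and Rpa2 (0.82), a single-strand binding protein, led the rises. Pola1 (-2.67), the catalytic subunit of polymerase alpha, Dbf4 (-1.52), which activates the Cdc7 kinase, and Orc3 (-1.42), part of the origin recognition complex, led the falls. These genes split in direction, as Mcm5 and Mcm4 did. Of 45 further mitotic genes 3 rose and 14 fell (1 and 3 without M1P array 1), and those that fell include Aspm (-3.08), a spindle pole protein, Knl1 (-2.42), a kinetochore scaffold, and Anln (-2.24), of the cleavage furrow.

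Of 18 further G1/S genes none rose and 9 fell, led by Rbl1 (-2.27), a pocket protein that restrains E2F, Ccnd2 (-1.95), a second cyclin D, and Cdk6 (-1.91). Several of those that fell, such as Rbl1 and Rb1, act as brakes rather than drivers. Of 11 inhibitors 6 rose and none fell, against the same 17.7% and 9.86% of all genes (1 and none without M1P array 1): Cdkn2a (1.42 ± 0.45, adjusted p = 0.035), Btg2 (1.00) and Cdkn2d (0.86) were the largest. Against NMuMG, 3.00% of all genes were higher in E1KD and 6.49% lower. Pole rose and Rpa2, Gins4 and Pola2 fell among the 38 replication genes, 10.5% of that list. Racgap1 rose and Spc24 fell (-1.31) among the 45 mitotic genes (4.44%). Ccnd2 rose (1.68 ± 0.37, adjusted p = 0.0107 by limma) among the 18 G1/S genes (5.56%). Wee1 rose and Btg1 fell among the 11 inhibitors (18.2%). Before adjustment, limma put 17 replication, 3 mitotic, 3 G1/S and 5 inhibitor genes below 0.05. Those that rose numbered 5, 2, 2 and 2. In L1P against E1KD, Fen1 (-0.54), a flap nuclease, was the 1 gene of these 4 lists that passed. In L2P against E1KD no gene of these 4 lists passed by limma, where 5 replication, 5 mitotic, 0 G1/S and 1 inhibitor genes had an unadjusted p under 0.05.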

How the data were processed

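RNA of 15 samples, 3 from each of 5 cell lines, was measured on Affymetrix mouse arrays from 100 ng of total RNA, amplified with a 3' in vitro transcription kit and biotin-labelled, per the labels' protocols. The deposited values are log2 signals of 45101 probe sets, used as deposited, with no further scaling; per the submitters' processing notes, the tools were Affymetrix Expression Console, RMA and MAS5; which of these the authors took for this table is not given in the sources used here, nor is a version. Log2 values ran from 1.53 to 14.68. No detection calls were used, so fold changes near the lowest signals are compressed. Arrays have no read depth, and 3 arrays per line limit the precision.

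Names of probe sets came from GEO's annotation of the array, updated through a RefSeq gene table (GRCm38.p6): 34945 had 1 symbol, 932 several and 9160 none, and 64 were controls. The 18193 genes with 1 symbol were fitted with limma 3.58.1 in R 4.3.3, with 1 coefficient per line over all 15 arrays (10 residual and 2.98 prior degrees of freedom). Moderated two-sided tests covered 6 comparisons and an F test the 5 lines, with Benjamini-Hochberg adjustment over all genes and a threshold of 0.05. The test was checked on simulated data. These gave each gene 1 spread in all lines, so the check does not cover the wider spread of M1P. Alternatives were quantile normalization, array weights, another choice of probe set, a filter at a mean log2 value above 5, a fit of only the lines compared, a replicate block, and each array left out. The members and lists were chosen with earlier results of these data known.

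Named with values were members that passed a comparison (at most 10 per direction), a fixed set of members in every line, Pcbp1, and at most 3 passing genes per direction of each other list. Members were counted and described, with no test of a list. A planned description of change by protein length was not run. Promoter windows came from RefSeq.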

Additional observations from a re-analysis of the deposited data

Results flagged for a closer look

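The change from E1KD differed between M1P and L1P in 12 of 43 members: each passed in at least 1 of the lines against E1KD, and its difference between L1P and M1P passed as well. This is 27.9% of the members, against 22.6% of all genes under the same rule. The differences of L1P minus M1P, on the log2 scale and by limma, were 3.51 for Mki67, 3.18 for Cenpf, 2.81 for Top2a, 2.65 for Bub1, 2.61 for Cenpe, 1.55 for Kif23, 1.35 for Tpx2, 0.95 for Mcm4 and 0.84 for Kif20a, all higher in L1P. They were -0.86 for Cenpa, -0.83 for E2f1 and -0.50 for Ccne1, which were lower in L1P. With M1P arrays 1 and 2 left out, the same differences were 1.30, 0.72, 0.75, 0.45, 0.89, 0.35, 0.43, 0.43 and 0.22 in the first list and -0.80, -0.37 and -0.42 in the second, and only that of Cenpa passed (adjusted p = 0.0276 by limma).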

How the results depend on the processing

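Of the alternatives, none reversed the direction of a passing result. Left-out arrays moved the members passing for E1KD against NMuMG (4) to between 1 and 5, for M1P against E1KD (16) to between 3 and 26, for L1P against E1KD (2) to 0 or 1, for L2P against E1KD (2) to between 1 and 3, for L1P against M1P (14) to between 5 and 23, and for the F test (17) to between 12 and 32. Mitotic minus replication medians moved with left-out arrays to between 0.11 and 0.27 for E1KD against NMuMG (0.22), -0.17 and 0.04 for L1P against E1KD (-0.06), -0.22 and 0.04 for L2P against E1KD (-0.08), and -0.19 and 0.03 for L2P against L1P (-0.01). Array weights gave 13 members for E1KD against NMuMG, 6 for L1P and 6 for L2P against E1KD, and 33 by the F test. Fitting only the lines compared used fewer samples in every comparison, but the counts moved both ways. It gave 10 for E1KD against NMuMG, 4 for L1P and 1 for L2P against E1KD, and 0 for M1P against E1KD and for L1P against M1P. In M1P against E1KD the standard error went from 0.82 to 1.0 for Kif11 and from 0.29 to 0.4 for Mcm4. For Bub1b it went from 0.19 to 0.18. The reason for these moves was not tested. The mean of all probe sets gave 2 for E1KD against NMuMG, and the probe set of largest variance a mitotic minus replication median of 0.39 there. The filter on low values gave 1 for L2P against E1KD. Without M1P arrays 1 and 2, chosen after seeing the data, 9 members passed for E1KD against NMuMG, 0 for M1P against E1KD and 2 for L1P against M1P, and the mitotic minus replication medians were -0.01 for M1P against E1KD (-0.68 with all arrays) and 0.15 for L1P against M1P (0.57). Where no construction is named, the cause was not tested.

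The labels do not say what arrays of the same replicate number share. Deviations of 30 same-numbered pairs correlated at -0.496 to 0.755, 16 over 0.1. Their median was 0.115, against -0.081 for pairs of other numbers. Of 15 arrays, 9 correlated best with an array of their own number. Whether arrays of a number share a batch was not tested. With the replicate block 1 member passed for L2P against E1KD (Bub1b no longer did, adjusted p = 0.0686), 20 for M1P against E1KD, 20 for L1P against M1P, 5 for E1KD against NMuMG and 3 for L1P against E1KD.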
